A study of Mus musculus with 12 samples.

Results

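The comparison described here sets irradiated Bub1-disrupted melanoma cells against irradiated control cells. It rests on 6 of the 12 RNA-seq libraries of the series, 3 of each genotype, and covers the 14721 of 55421 listed genes that reached a normalized value of 10 or more in at least 3 of the 12 libraries. The cells were B16F10, a mouse melanoma line that grows in culture and forms pigmented tumours in mice. The control group (VC) carried a vector and the other group (Bub1KO) had Bub1 disrupted with CRISPR-Cas9. Both irradiated groups received 8 Gy. The remaining 6 libraries came from the same 2 genotypes without irradiation and share no library with the irradiated comparison. They are used below to place an irradiated difference beside the untreated one. The labels do not say whether Bub1KO is a single clone, which guide was used, how long after irradiation RNA was taken or whether the 3 replicates were separate cultures, so the p-values measure the spread between these libraries only. Fewer cells of a state and less RNA per cell cannot be told apart in bulk RNA.

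Bub1 is a kinase of the spindle assembly checkpoint, which holds cells in mitosis until every chromosome is attached to the spindle. The title of the series places BUB1 also in the cytoplasm, in the control of double-stranded RNA and stress granules after DNA damage. Double-stranded RNA is detected by the helicases RIG-I (Ddx58) and Mda5 (Ifih1), whose signal leads to interferon, to transcription factors that include Stat2 and Irf9, and to the interferon-stimulated genes. Pigment cells add their own programme, in which Mitf drives genes of melanin synthesis, and tumour cells can switch on glycolytic genes through hypoxia-inducible factors.

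Read totals were 21596733 to 33087366 in the 5 irradiated libraries whose reads were recovered from the values. The sixth, Bub1KO replicate 2, was left out of that recovery and had a normalized total of 23801746. The first principal component of the 6 libraries held 56.4% of the variance and separated the genotypes. The labelled cell type was present in every library: all 7 melanocytic markers were detected, with a summed normalized value of 430616 to 445913 in VC and 555547 to 578932 in Bub1KO. Of 8 leukocyte and macrophage markers, Cd3e and Adgre1 were at 0 in all 6 libraries, and the summed value was 172 to 196 in VC and 271 to 288 in Bub1KO. Most of that sum is Cd68, which was at 130.1, 109.8 and 98.7 in VC and 224, 214 and 209 in Bub1KO. Fibroblast and endothelial markers summed to 357 to 374 and 248 to 284, and epithelial markers to 77.2 to 102 and 122 to 133. Dcn and Kdr were at 0 in all VC libraries, Cdh5 in all Bub1KO libraries and Krt18 in both groups. Only 2 of the 8 leukocyte, 4 of the 9 fibroblast and endothelial and 1 of the 6 epithelial markers passed the filter on low values. The part of these marker changes in the results below was not tested.

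Families of genes with rising members in irradiated Bub1KO are described below, and the upstream sequences of some members are shown before the values, because a known motif can be seen in them. Each stretch is the 250 bases before the RefSeq transcription start (GRCm38.p6), printed 5′ to 3′ on the gene's strand, with the matches in capitals. In Isg15 (chr4:156200819-156201068, minus strand), Stat2 (chr10:128270248-128270497, plus strand) and Irgm2 (chr11:58214727-58214976, plus strand) the capitals mark GAAANNGAA, the core of the interferon-stimulated response element. The last base of the match lay 56 bases before the start in Irgm2 and 213 bases before it in Stat2, and 3 overlapping matches in Isg15 ended 58 to 70 bases before it.
Isg15: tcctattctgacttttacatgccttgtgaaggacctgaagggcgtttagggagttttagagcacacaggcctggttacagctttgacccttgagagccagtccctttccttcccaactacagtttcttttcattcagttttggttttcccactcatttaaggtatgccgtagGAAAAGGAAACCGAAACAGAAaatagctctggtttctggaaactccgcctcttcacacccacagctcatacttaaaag
Stat2: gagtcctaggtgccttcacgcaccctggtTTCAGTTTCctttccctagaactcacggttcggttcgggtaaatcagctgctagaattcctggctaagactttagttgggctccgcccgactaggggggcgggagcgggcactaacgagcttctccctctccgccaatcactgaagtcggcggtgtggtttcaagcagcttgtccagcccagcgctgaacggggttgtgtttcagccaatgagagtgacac
Irgm2: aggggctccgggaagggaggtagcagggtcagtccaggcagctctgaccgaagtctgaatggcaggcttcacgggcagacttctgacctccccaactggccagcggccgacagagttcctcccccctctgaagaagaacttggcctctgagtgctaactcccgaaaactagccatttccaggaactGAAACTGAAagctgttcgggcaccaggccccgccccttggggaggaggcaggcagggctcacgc

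The core ACGTG, bound by hypoxia-inducible factors, is in capitals in the carbonic anhydrase gene Car9 (chr4:43506776-43507025, plus strand), in Bnip3 (chr7:138909507-138909756, minus strand) and in the lactate dehydrogenase gene Ldha (chr7:46845554-46845803, plus strand). Ldha had 2 RefSeq promoter entries, and only the first listed is printed. The ACGTG motif was added once the values had been seen. Its matches on the 2 strands overlap in CACGTG, which is therefore counted as 2 matches.
Car9: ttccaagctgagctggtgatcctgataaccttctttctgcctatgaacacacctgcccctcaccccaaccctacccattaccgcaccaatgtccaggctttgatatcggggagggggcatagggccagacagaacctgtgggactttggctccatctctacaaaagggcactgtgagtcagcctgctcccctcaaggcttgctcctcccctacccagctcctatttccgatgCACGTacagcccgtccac
Bnip3: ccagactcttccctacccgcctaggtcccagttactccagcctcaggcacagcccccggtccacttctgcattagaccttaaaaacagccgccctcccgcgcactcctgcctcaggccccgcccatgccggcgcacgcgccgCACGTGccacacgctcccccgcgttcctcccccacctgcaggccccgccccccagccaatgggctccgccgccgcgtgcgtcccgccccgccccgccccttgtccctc
Ldha: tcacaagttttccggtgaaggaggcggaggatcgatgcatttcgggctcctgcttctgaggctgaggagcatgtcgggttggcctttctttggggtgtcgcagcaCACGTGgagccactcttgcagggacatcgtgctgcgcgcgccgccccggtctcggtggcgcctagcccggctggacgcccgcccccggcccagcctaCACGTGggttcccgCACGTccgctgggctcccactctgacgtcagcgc

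The M-box core CATGTG, a binding sequence of Mitf, is in capitals in the tyrosinase gene Tyr (chr7:87493513-87493762, minus strand) and in Trpm1 (chr7:64153585-64153834, plus strand). Trpm1 also had 2 promoter entries, of which only the first listed is printed.
Tyr: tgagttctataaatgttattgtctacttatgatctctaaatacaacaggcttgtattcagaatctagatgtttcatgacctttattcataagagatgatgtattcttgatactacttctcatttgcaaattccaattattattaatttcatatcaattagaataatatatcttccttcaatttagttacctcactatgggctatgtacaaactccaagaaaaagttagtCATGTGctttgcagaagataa
Trpm1: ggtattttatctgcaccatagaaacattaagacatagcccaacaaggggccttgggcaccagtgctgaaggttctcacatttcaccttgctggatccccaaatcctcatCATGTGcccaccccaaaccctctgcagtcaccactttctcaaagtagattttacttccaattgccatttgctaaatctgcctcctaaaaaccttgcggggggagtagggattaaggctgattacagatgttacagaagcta

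Over all 32851 promoter windows of 300 bases (250 before and 50 after the start), searched on both strands, 8.56% held GAAANNGAA, 19.6% held ACGTG and 14.2% held CATGTG. GAAANNGAA was present in 6 of 7 windows of the interferon-inducible GTPases and in 5 of 17 of MHC class I presentation, but in 2 of 17 of interferon regulators (11.8%) and 3 of 16 of RNA sensing (18.8%). Among G1/S and replication genes 3.85% of windows held it, and among stress granule proteins 12.8%. ACGTG was present in 24 of 46 windows of the glycolysis and hypoxia list (52.2%), but also in 43.6% of those of stress granule proteins, a list with falling members. Fewer than 80% of members had a promoter entry for the antiviral effectors (73.9%) and the melanocyte genes (73.1%). The same holds for p53 targets (78%) and cytosolic ribosomal proteins (76%), so a share over these lists is void. Irf7 had a window and no GAAANNGAA in it. The windows describe letters and say nothing of whether a factor was bound in these cells.

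Bub1 RNA itself (GRCm38 chromosome 2, 127801122 to 127831865) was at 1484, 1461 and 1507 in VC and 886, 989 and 1119.8 in Bub1KO. All 3 Bub1KO libraries lay below all 3 VC libraries (67.3% of the VC mean, log2 difference -0.58, SE 0.08, limma adjusted p = 0.00019). A disrupted reading frame need not remove the transcript, so this level checks the direction of the labels and not the loss of the protein. Across all genes, 4512 of 14721 passed the threshold (limma on log2(value + 1), Benjamini-Hochberg adjusted p under 0.05), which is 30.7% of those tested. Of these, 2104 were higher in Bub1KO (14.3% of tested genes) and 2408 lower (16.4%). All 3 Bub1KO libraries lay above all 3 VC libraries for 22.1% of genes and below them for 22.6%. These shares are the background for every list below: most calls were small, with a median size of 0.38 on the log2 scale, and 404 genes (220 higher, 184 lower) changed at least 2-fold. List members named for the largest called differences were picked by these same values, so groups that do not overlap add no support for them. In the 12-library fit 2105 genes passed, and DESeq2 on the recovered reads called 2656.

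**Figure D1:**
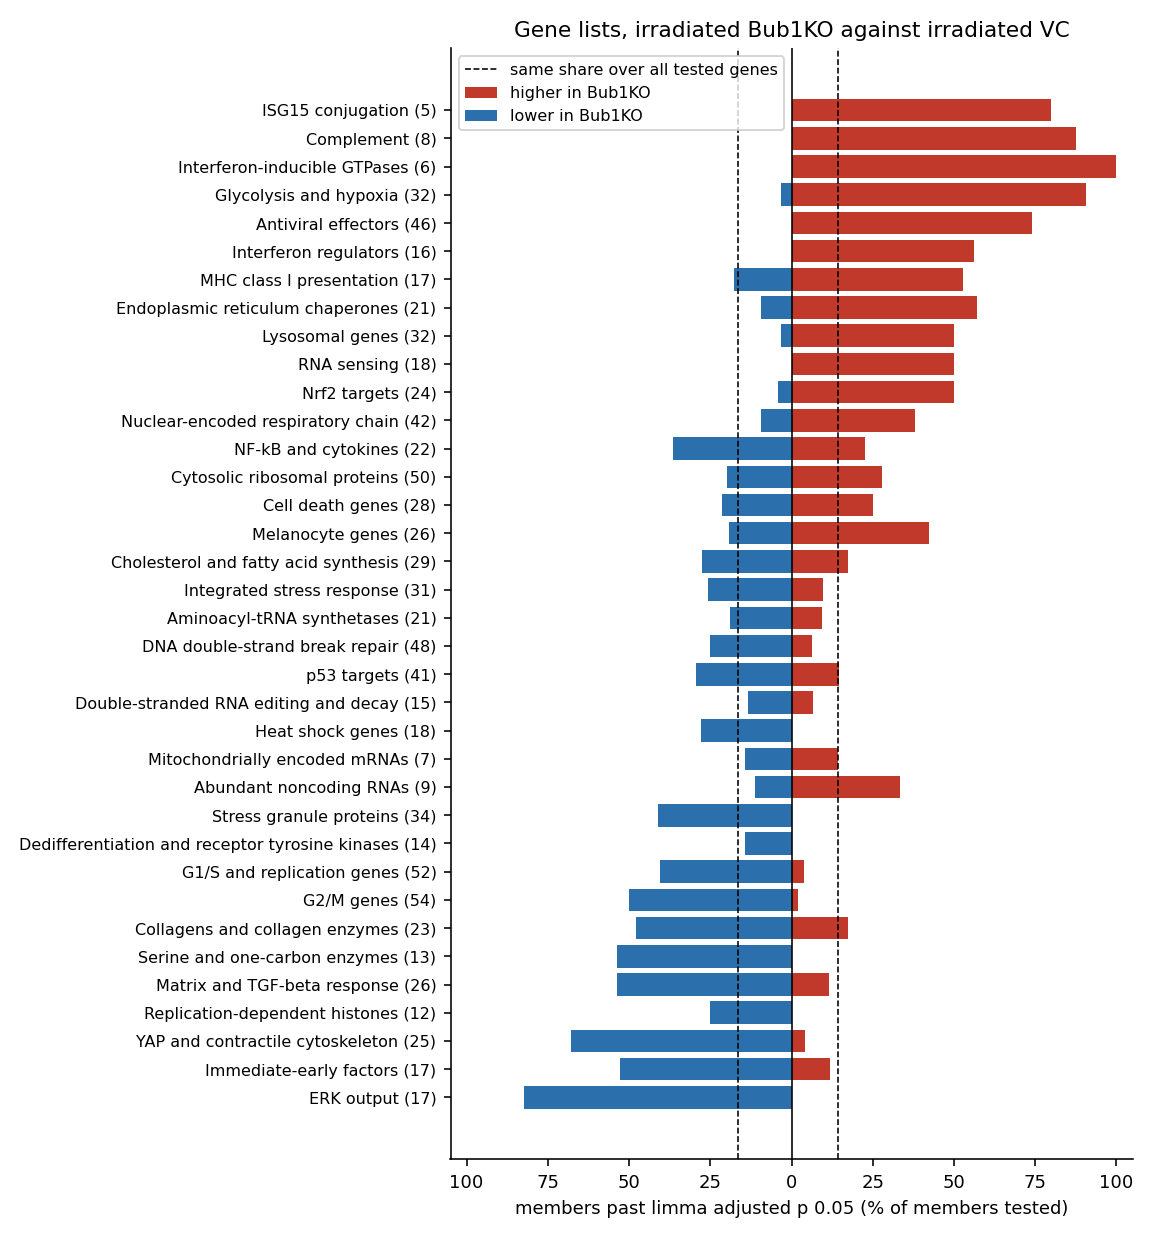
Share of tested members of each gene list (number tested in parentheses) that were higher (red, right) or lower (blue, left) in irradiated Bub1KO than in irradiated VC at a limma adjusted p under 0.05, ordered by median log2 difference, with dashed lines at 14.3% and 16.4%, the shares over all tested genes. Interferon, complement and glycolysis lists reach furthest to the right and ERK output and YAP lists furthest to the left.

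Most tested members of the interferon lists were higher in irradiated Bub1KO, from the transcription factors down to the effectors. Among interferon regulators 9 of 16 tested members rose and 0 fell, with a median log2 difference of 0.24 (the median over all tested genes was -0.01, rounded to 2 decimals). Irf7, the factor that amplifies interferon production, was at 17.1, 20.9 and 16.1 in VC and 145, 120.3 and 80.9 in Bub1KO (log2 difference 2.58, SE 0.22, limma adjusted p = 4.86e-06). The lowest Bub1KO library was well above the highest VC library. Stat2 and Irf9, which act downstream of the interferon receptor, rose by about 2-fold. Stat2 went from 260.4 ± 29.3 in VC to 507 ± 49.1 in Bub1KO (log2 difference 0.96, SE 0.10, limma adjusted p = 3.03e-05). Irf9 went from 262 ± 9.66 in VC to 554 ± 93.5 in Bub1KO (log2 difference 1.06, SE 0.11, limma adjusted p = 2.26e-05). Bub1KO replicate 3 was the lowest of its group for Irf7 and Stat2 and still lay above every VC library. The upstream kinase Tyk2 and the factor Irf3, which is activated without being induced, did not pass and were picked with the values in view.

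The ISG15 system, in which a ubiquitin-like protein is attached to others, rose in most members (4 of 5 tested members rose and 0 fell, median 1.05). The member that did not pass was Herc6 (log2 difference 0.11, SE 0.08, limma adjusted p = 0.306). Isg15 (GRCm38 chromosome 4, 156199424 to 156200818), the modifier, was at 485, 454 and 439.8 in VC and 1590.1, 1241 and 1018 in Bub1KO (log2 difference 1.46, SE 0.12, limma adjusted p = 4.18e-06). The activating enzyme gene Uba7 was at 68.97, 75.3 and 76.2 in VC and 159, 146 and 157 in Bub1KO (log2 difference 1.05, SE 0.12, limma adjusted p = 5.89e-05). The conjugating enzyme gene Ube2l6 went from 290.0 ± 10.9 in VC to 567 ± 26.3 in Bub1KO (log2 difference 0.96, SE 0.08, limma adjusted p = 4.04e-06). Usp18, the protease that removes Isg15 and restrains interferon receptor signalling, was at 25.6, 29.95 and 41.8 in VC and 137, 84.9 and 96.6 in Bub1KO (log2 difference 1.68, SE 0.22, limma adjusted p = 0.000128). In all 4 genes the groups did not overlap, and Bub1KO replicate 1 was the highest library each time.

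Among antiviral effectors 34 of 46 tested members rose and 0 fell (median 0.62), and 12 did not pass. The largest rises were in Trim30a, Phf11d, Oas2 and Xaf1. Trim30a, a regulator of inflammatory signalling, was at 31.3, 24.5 and 30.03 in VC and 119, 114 and 103 in Bub1KO (log2 difference 1.94, SE 0.17, limma adjusted p = 4.85e-06). Xaf1, which antagonizes inhibitors of apoptosis, was at 91.7, 85.3 and 87.95 in VC and 354, 265 and 224 in Bub1KO (log2 difference 1.63, SE 0.15, limma adjusted p = 7.55e-06). Oas2, a synthetase activated by double-stranded RNA, stood at low levels of 7.11, 2.72 and 6.44 in VC and 22.7, 18.2 and 15.8 in Bub1KO (log2 difference 1.70, SE 0.38, limma adjusted p = 0.0047). Phf11d was similarly low, at 7.82, 3.63 and 3.22 in VC and 19.6, 22.2 and 17.9 in Bub1KO (log2 difference 1.90, SE 0.37, limma adjusted p = 0.002).

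The most abundant effector with a 2-fold change was Ifi27, an interferon-induced membrane protein gene, at 2110.4, 2007 and 2108 in VC and 5042, 5006 and 4586 in Bub1KO (log2 difference 1.23, SE 0.06, limma adjusted p = 2.08e-08). Its 6 values fell into 2 tight groups. Mx1, an interferon-induced GTPase gene, went from 103 ± 7.87 in VC to 236 ± 22.6 in Bub1KO (log2 difference 1.19, SE 0.12, limma adjusted p = 1.46e-05). Bst2, the tetherin that holds budding virions at the membrane, was at 872, 1239.9 and 749 in VC and 1814, 1643 and 1434 in Bub1KO (log2 difference 0.80, SE 0.14, limma adjusted p = 0.00112), and its VC libraries were the more scattered ones. Ifit1, which binds viral RNA ends, was at 669, 641 and 655 in VC and 1156, 883 and 832 in Bub1KO (log2 difference 0.53, SE 0.10, limma adjusted p = 0.002). Oasl2 was at 22.8, 9.08 and 20.4 in VC and 68.1, 56.6 and 23.1 in Bub1KO (log2 difference 1.41, SE 0.39, limma adjusted p = 0.0163), with the lowest Bub1KO library just above the highest VC library. The Bst2 call ended by DESeq2 (adjusted p of at most 0.0636), that of Ifit1 in the 12-library fit (adjusted p of at most 0.114) and that of Oasl2 in the 12-library fit, without VC replicate 2 and without Bub1KO replicate 1 or 2 (adjusted p of at most 0.128). Bub1KO replicate 1 was the highest library of its group for 27 of the 34 effectors that rose. Without that library 32 members rose and 0 fell.

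All 6 tested interferon-inducible GTPases, which attack the vacuoles of intracellular parasites, rose (median 0.85). Igtp was at 22.04, 19.1 and 19.3 in VC and 110.4, 62.7 and 55.7 in Bub1KO (log2 difference 1.81, SE 0.25, limma adjusted p = 0.000176). Irgm2 was at 50.5, 46.3 and 36.5 in VC and 192, 138 and 133 in Bub1KO (log2 difference 1.77, SE 0.18, limma adjusted p = 1.68e-05). Neither gene's groups overlapped. The guanylate-binding protein genes Gbp7 and Gbp3 had log2 differences of 0.90 and 0.80, although reads of this family may be shared between close copies. A further 9 listed GTPases were below the filter on low values.

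The RNA sensing list holds sensors together with other genes, among them those through which the sensors signal. Its median, which is not that of the sensors alone, was lower than that of the effectors. In the RNA sensing list 9 of 18 tested members rose and 0 fell (median 0.17). Dhx58, the helicase LGP2 that tunes the other RNA sensors, was at 127, 112 and 112 in VC and 345, 286 and 242 in Bub1KO (log2 difference 1.30, SE 0.13, limma adjusted p = 1.8e-05). Ddx58 was at 527, 536 and 518 in VC and 1140.2, 1056 and 1005 in Bub1KO (log2 difference 1.01, SE 0.07, limma adjusted p = 8.65e-07). Ifih1 went from 345 ± 1.71 in VC to 462 ± 24.4 in Bub1KO (log2 difference 0.42, SE 0.08, limma adjusted p = 0.00181). Eif2ak2, the kinase PKR that halts translation on double-stranded RNA, was at 1795, 1873 and 1771 in VC and 2713, 2380.4 and 2186 in Bub1KO (log2 difference 0.41, SE 0.07, limma adjusted p = 0.00116). Ikbke, a kinase that phosphorylates interferon regulatory factors, went from 670.0 ± 24.9 in VC to 1044 ± 37.5 in Bub1KO (log2 difference 0.64, SE 0.07, limma adjusted p = 2.44e-05), and Rnf135, the ubiquitin ligase of RIG-I, from 442 ± 25.9 in VC to 617 ± 26.8 in Bub1KO. Zbp1, a sensor of Z-form RNA, was below the filter, with values of 0.711, 0.908 and 3.22 in VC and 5.16, 5.06 and 5.25 in Bub1KO. Mavs, Tbk1 and Traf3, through which the sensors signal, did not pass (genes chosen with the values in view).

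Genes that edit, trim or degrade double-stranded RNA did not move as a block (1 of 15 tested members rose and 2 fell, median -0.11). Adar, which edits adenosine to inosine in such RNA and is itself induced by interferon, was at 1552, 1579 and 1455 in VC and 1842, 1691 and 1800.4 in Bub1KO (log2 difference 0.22, SE 0.06, limma adjusted p = 0.0186). Its call ended in the 12-library fit, without VC replicate 1 or 3 and without Bub1KO replicate 1 (adjusted p of at most 0.0882). Rnaseh2c, a subunit of the enzyme that removes RNA from hybrids with DNA, went from 232 ± 80.6 in VC to 126 ± 7.64 in Bub1KO (log2 difference -0.83, SE 0.18, limma adjusted p = 0.00437), and this call ended in the 12-library fit (adjusted p of at most 0.0678). Exosc10, a nuclease of the nuclear exosome, had a log2 difference of -0.20 (limma adjusted p = 0.0195), and its call ended by DESeq2, in the 12-library fit, without VC replicate 2 or 3 and without Bub1KO replicate 1 or 2 (adjusted p of at most 0.0739). In the cytosolic DNA sensing list 0 of 4 tested members passed by limma, edgeR or DESeq2, and 0 had an unadjusted p under 0.05 by limma.

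Stress granule protein genes were slightly lower in irradiated Bub1KO: 0 of 34 tested members rose and 14 fell (median -0.15). The median in untreated cells was also -0.15, and the median interaction was 0.003. G3bp1, the protein that nucleates these granules, was at 9550.1, 9917 and 9783 in VC and 8128, 7809.5 and 8044 in Bub1KO (log2 difference -0.29, SE 0.05, limma adjusted p = 0.00109), with no overlap between the groups. Usp10, its binding partner, went from 1787 ± 71.7 in VC to 1367 ± 68.4 in Bub1KO (log2 difference -0.39, SE 0.06, limma adjusted p = 0.000614), and Nufip2, another partner, from 2019.8 ± 192 in VC to 1516 ± 183 in Bub1KO (log2 difference -0.42, SE 0.09, limma adjusted p = 0.00386). Atxn2l had a log2 difference of -0.42 and Fmr1, the fragile X RNA-binding protein gene, of -0.49. Their calls ended in the 12-library fit (adjusted p of at most 0.0645) and in the 12-library fit (adjusted p of at most 0.069). The falls numbered 9 by DESeq2, 6 in the 12-library fit, 8 by edgeR and 9 without Bub1KO replicate 2.

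MHC class I genes, which display peptides to T cells, were mostly higher (9 of 17 tested members rose and 3 fell, median 0.20). Their median in untreated cells was larger, at 0.35. B2m, the shared light chain, was at 5746, 5598 and 5449 in VC and 8059.9, 7539.5 and 7807 in Bub1KO (log2 difference 0.48, SE 0.05, limma adjusted p = 3.61e-05). The heavy chain gene H2-K1 was at 361, 347 and 301 in VC and 714, 658 and 617 in Bub1KO (log2 difference 0.98, SE 0.09, limma adjusted p = 8.84e-06), a larger log2 difference than that of B2m. H2-T22 went from 520.3 ± 23.9 in VC to 727 ± 37.5 in Bub1KO and the proteasome activator gene Psme2 from 982 ± 58.6 in VC to 1417 ± 110.2 in Bub1KO (log2 differences 0.48 and 0.53). The peptide transporter gene Tap1 was at 317, 342 and 332 in VC and 331, 310.4 and 305 in Bub1KO (log2 difference -0.07, SE 0.09, limma adjusted p = 0.589), and its groups overlapped. Psmb10, a subunit of the immunoproteasome, fell, with a log2 difference of -0.43, and its call ended in the 12-library fit (adjusted p of at most 0.188). The rises numbered 5 in the 12-library fit, and the falls 1 by DESeq2, 1 in the 12-library fit and 1 without VC replicate 3. H2-M3 and Erap1, which trims peptides, had log2 differences of -1.32 and -0.30. Their calls ended by edgeR, without VC replicate 3 and without Bub1KO replicate 2 (adjusted p of at most 0.0805) and by DESeq2, in the 12-library fit, without VC replicate 1 or 2 or 3 and without Bub1KO replicate 1 (adjusted p of at most 0.134). Near-identical H2 genes can exchange reads, so single H2 values are uncertain.

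NF-kB and cytokine genes went both ways (5 of 22 tested members rose and 8 fell, median 0.11). Tnfaip2 was at 1259, 1224 and 1114 in VC and 2413, 2262 and 2047 in Bub1KO (log2 difference 0.90, SE 0.07, limma adjusted p = 2.94e-06). Il15, a cytokine that supports natural killer cells, was at 38.4, 34.5 and 34.3 in VC and 66.04, 69.8 and 70.4 in Bub1KO (log2 difference 0.93, SE 0.17, limma adjusted p = 0.00111). Cx3cl1, a membrane-bound chemokine gene, was lower, at 29.2, 57.2 and 54.7 in VC and 13.4, 10.1 and 19.96 in Bub1KO (log2 difference -1.62, SE 0.31, limma adjusted p = 0.00176). Il33, an alarmin gene, was at 67.5, 63.5 and 76.2 in VC and 24.8, 26.3 and 47.3 in Bub1KO (log2 difference -1.11, SE 0.23, limma adjusted p = 0.00325). In each of these 4 genes the groups did not overlap. The leukaemia inhibitory factor gene Lif went from 94.2 ± 5.83 in VC to 47.04 ± 5.19 in Bub1KO (log2 difference -0.99, SE 0.15, limma adjusted p = 0.00046). Nfkbia, the feedback inhibitor of NF-kB, went from 546 ± 45.2 in VC to 720.2 ± 93.99 in Bub1KO (log2 difference 0.39, SE 0.10, limma adjusted p = 0.0087). Ccl5, a chemokine gene picked with the values in view, fell (log2 difference -0.46, SE 0.09, limma adjusted p = 0.00212). Its untreated log2 difference was 0.41 (interaction -0.87, limma adjusted p = 0.0436). The rises numbered 3 by DESeq2 and 3 in the 12-library fit, and the falls 5 in the 12-library fit. A further 13 of the 35 listed genes were below the filter, among them Tnf, Il6 and Ccl2.

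Glycolytic and hypoxia-induced genes rose in irradiated Bub1KO in a larger share than any other list of more than 10 members: 29 of 32 tested members rose and 1 fell, with a median of 0.69. Car9 (GRCm38 chromosome 4, 43506966 to 43513729), a carbonic anhydrase of hypoxic tumour cells, was at 203, 195 and 189 in VC and 844, 856 and 967 in Bub1KO (log2 difference 2.18, SE 0.08, limma adjusted p = 1.72e-08). The mean ratio was 4.54. Bnip3, a mitophagy receptor, was at 849.7, 808 and 787 in VC and 2103, 2169 and 2398 in Bub1KO (log2 difference 1.45, SE 0.07, limma adjusted p = 2.08e-08). Egln3, an oxygen-sensing prolyl hydroxylase that is itself induced by hypoxia, was at 61.2, 49.9 and 60.1 in VC and 156, 157 and 166 in Bub1KO (log2 difference 1.47, SE 0.14, limma adjusted p = 8.15e-06), and Ankrd37 at 49.8, 35.4 and 37.5 in VC and 104, 110.2 and 126 in Bub1KO (log2 difference 1.46, SE 0.17, limma adjusted p = 5.44e-05). In these 4 genes all 3 Bub1KO libraries lay above all 3 VC libraries.

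The rise ran through the glycolytic pathway. Ldha (GRCm38 chromosome 7, 46841475 to 46855627), which turns pyruvate into lactate, was among the most abundant of these genes, at 29914, 27279 and 29383 in VC and 37257, 45369.7 and 43858 in Bub1KO (log2 difference 0.54, SE 0.07, limma adjusted p = 0.000188). The next genes were chosen after the values had been seen, as the remaining steps. The log2 difference was 0.75 for the glucose phosphate isomerase gene Gpi1, 0.73 for the phosphofructokinase gene Pfkl, 0.65 for the aldolase gene Aldoa and 1.44 for its brain-type relative Aldoc. It was 0.79 for Tpi1, 0.62 for Gapdh, 0.73 for Pgk1, 0.49 for Pgam1, 0.31 for Eno1 and 0.50 for the pyruvate kinase gene Pkm. Pdk1, which keeps pyruvate out of mitochondria, and Slc16a3, which exports lactate, had 1.18 and 1.09, and all of these passed. The hexokinase gene Hk1 (-0.06) and the histone demethylase gene Kdm3a (-0.01) did not, and Pfkfb3 fell (log2 difference -0.25, SE 0.07, limma adjusted p = 0.022), a call that ended by DESeq2 and edgeR, in the 12-library fit, without VC replicate 2 and without Bub1KO replicate 1 or 2 (adjusted p of at most 0.185). The abundant gene Fam162a, a hypoxia-induced mitochondrial protein gene, was at 2496, 2267 and 2244 in VC and 4091, 5181 and 4823 in Bub1KO (limma adjusted p = 2.76e-06).

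In untreated cells 11 of the same 32 genes were higher in Bub1KO and 0 lower, with a median of 0.32. Of all genes 4.01% passed in that comparison, in either direction. The test of the difference between the irradiated and untreated effects (interaction) passed for Egln3 (interaction 1.13, SE 0.23, limma adjusted p = 0.0446) and, downward, for Ddit4 (interaction -0.96, SE 0.16, limma adjusted p = 0.0171), and for no other member by limma, against 0.55% of all genes. Txnip, which restrains glucose uptake and is the second most abundant of the genes that rose at least 2-fold, was at 2354, 2326 and 2063 in VC and 5552, 5772 and 5901 in Bub1KO (log2 difference 1.36, SE 0.06, limma adjusted p = 2.07e-08). Its untreated log2 difference was 0.73 (interaction 0.63, SE 0.11, limma adjusted p = 0.0216). Pygm, a glycogen phosphorylase gene, was at 41.95, 47.2 and 40.8 in VC and 145, 131 and 141 in Bub1KO after irradiation (log2 difference 1.66, SE 0.14, limma adjusted p = 4.52e-06) and showed -0.09 in untreated cells (interaction 1.75, SE 0.27, limma adjusted p = 0.00733).

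**Figure D2:**
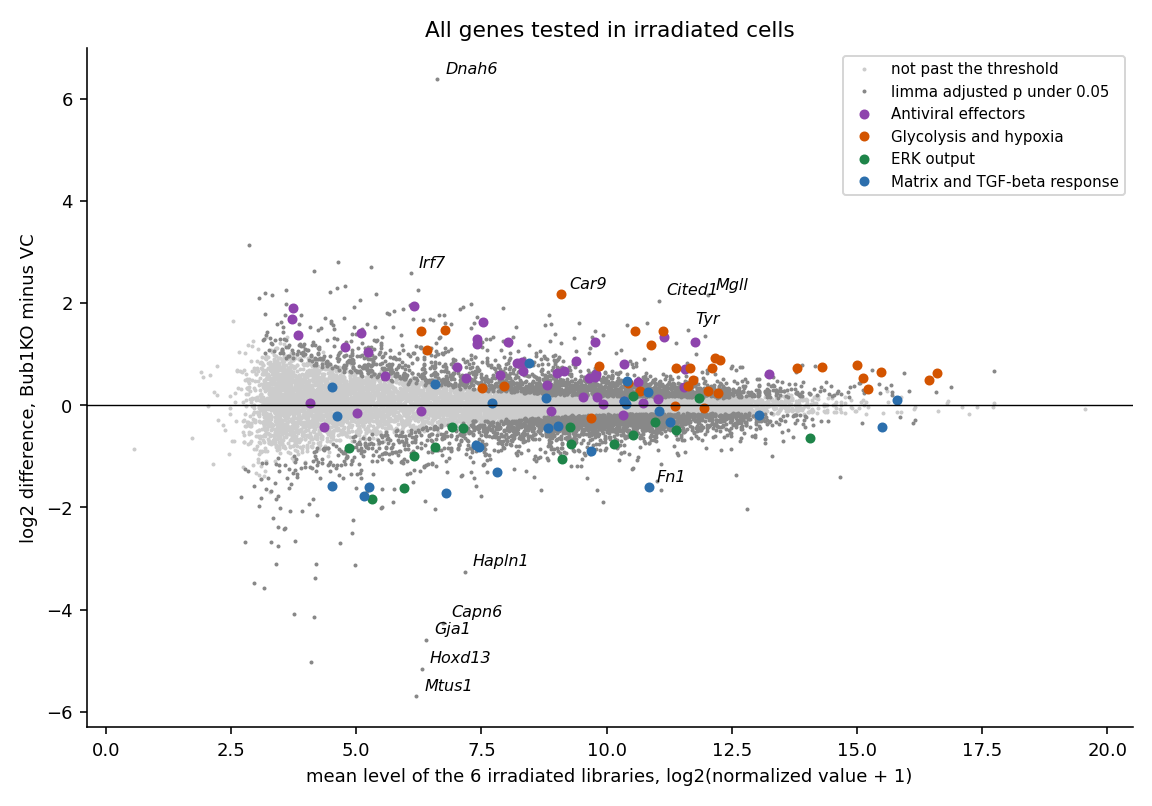
Log2 difference between irradiated Bub1KO and irradiated VC (vertical axis) against mean level as log2(normalized value + 1) (horizontal axis) for all tested genes, with the members of 4 lists in colour. Antiviral effectors and glycolysis genes lie mostly above 0 and ERK output and matrix genes mostly below it, and Dnah6 (6.38) and Mtus1 (-5.70) are among the labelled extremes.

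Complement genes, of the plasma cascade that marks cells for clearance, rose in 7 of 8 tested members and fell in none (median 1.02, against 0.77 in untreated cells). Clu, which encodes the complement inhibitor and chaperone clusterin, was at 204, 211 and 212 in VC and 722, 772 and 650.2 in Bub1KO (log2 difference 1.76, SE 0.09, limma adjusted p = 2.99e-08). The serine protease genes of the classical pathway followed: C1s1 was at 417, 372 and 328 in VC and 897, 888 and 981 in Bub1KO (log2 difference 1.31, SE 0.09, limma adjusted p = 8.38e-07). C1rl went from 510.0 ± 20.98 in VC to 1113 ± 68.1 in Bub1KO (log2 difference 1.12, SE 0.07, limma adjusted p = 4.24e-07). C4b was low, at 16.4, 35.4 and 24.7 in VC and 56.8, 81.9 and 53.6 in Bub1KO (log2 difference 1.34, SE 0.27, limma adjusted p = 0.00236), and its call ended in the 12-library fit (adjusted p of at most 0.0557). The groups did not overlap in any of these 4 genes. A further 7 listed genes, C3 among them, were below the filter.

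Lysosomal genes rose modestly (16 of 32 tested members rose and 1 fell, median 0.17). Ctsd, the aspartic protease cathepsin D, was at 19108, 18039.5 and 17273 in VC and 23597, 26306 and 24332 in Bub1KO (log2 difference 0.45, SE 0.06, limma adjusted p = 0.000179). Ctsz went from 9795 ± 218 in VC to 13416 ± 1056 in Bub1KO (log2 difference 0.45, SE 0.06, limma adjusted p = 0.000198). Lipa, the lysosomal acid lipase gene, was at 4241, 4140.0 and 4184 in VC and 5455, 5442 and 5505 in Bub1KO (log2 difference 0.38, SE 0.05, limma adjusted p = 0.00013). Neu1, a sialidase gene, went from 2417 ± 71.6 in VC to 3203 ± 265 in Bub1KO. Atp6v1h, a subunit of the proton pump, fell (log2 difference -0.26, SE 0.06, limma adjusted p = 0.00702). The Ctsd call ended in the 12-library fit (adjusted p of at most 0.079), in which 9 members of the list rose. Cd68, a lysosomal membrane protein gene used above as a macrophage marker, rose with a log2 difference of 0.94 (limma adjusted p = 0.000135), against -0.30 in untreated cells (interaction 1.24, SE 0.21, limma adjusted p = 0.0171).

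Genes of the oxidative stress factor Nrf2 rose in 12 of 24 tested members and fell in 1 (median 0.16). The glutathione transferase genes led: Gstp1 was at 11689.7, 11158 and 10826 in VC and 19209, 20742 and 17929 in Bub1KO (log2 difference 0.78, SE 0.06, limma adjusted p = 2.77e-06). Gstm1 was at 3123, 2737 and 3047 in VC and 4919, 4755 and 4344 in Bub1KO (log2 difference 0.65, SE 0.07, limma adjusted p = 1.88e-05). Me1, which makes NADPH, went from 2049 ± 118 in VC to 2824 ± 68.2 in Bub1KO (log2 difference 0.46, SE 0.06, limma adjusted p = 0.000119). The member that fell was Gpx1, a glutathione peroxidase gene (log2 difference -0.43, SE 0.06, limma adjusted p = 0.000325), and this call ended in the 12-library fit (adjusted p of at most 0.163). Nqo1, a quinone reductase gene, had 0.44, a call that ended by DESeq2 (adjusted p of at most 0.0683).

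Chaperones of the endoplasmic reticulum rose in 12 of 21 tested members and fell in 2, by small amounts (median 0.18). Hsp90b1 was at 17928, 16777 and 17568 in VC and 21727, 22317 and 22506 in Bub1KO (log2 difference 0.35, SE 0.05, limma adjusted p = 0.00039). Pdia4 went from 12332 ± 3.34 in VC to 15311 ± 399.6 in Bub1KO and Pdia6 from 10810.0 ± 414 in VC to 13074 ± 317 in Bub1KO. Hspa5, the chaperone BiP, was at 27683, 27522 and 28108 in VC and 30419.5, 31674 and 31593 in Bub1KO (log2 difference 0.17, SE 0.05, limma adjusted p = 0.028). The Hspa5 groups did not overlap, but its call ended by DESeq2 and edgeR, in the 12-library fit, without a filter on low values, with the replicate block, without VC replicate 1 or 2 or 3 and without Bub1KO replicate 2 or 3 (adjusted p of at most 0.287). The rises numbered 6 by DESeq2, 4 in the 12-library fit, 7 by edgeR, 6 without Bub1KO replicate 2 and 7 without VC replicate 2. Heat shock genes had falling members only: 0 of 18 tested members rose and 5 fell (median -0.12). Hspd1, the mitochondrial chaperonin, was at 15391, 15370.0 and 16140.1 in VC and 11745, 12370.1 and 12636 in Bub1KO (log2 difference -0.35, SE 0.05, limma adjusted p = 0.000398). Hsf1, the heat shock transcription factor, went from 1328 ± 41.3 in VC to 1023 ± 37.9 in Bub1KO (log2 difference -0.38, SE 0.06, limma adjusted p = 0.000713), and the co-chaperone genes Dnajb4 and Chordc1 had -0.45 and -0.38.

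Pigment cell genes split. In the melanocyte list 11 of 26 tested members rose and 5 fell (median 0.01). Tyr (GRCm38 chromosome 7, 87424771 to 87493512), the enzyme that starts melanin synthesis, was at 1682, 1711 and 1583 in VC and 4338, 4435 and 5109 in Bub1KO (log2 difference 1.48, SE 0.07, limma adjusted p = 2.07e-08). Cited1, a transcriptional co-activator of pigment cells, was at 895, 763 and 802 in VC and 3570.3, 3646 and 2949.6 in Bub1KO (log2 difference 2.04, SE 0.09, limma adjusted p = 2.07e-08). The melanosome transporter gene Oca2 was at 112, 104 and 116 in VC and 270.3, 276 and 270.0 in Bub1KO (log2 difference 1.29, SE 0.10, limma adjusted p = 2.79e-06). The channel gene Trpm1 was at 1666, 1540.4 and 1605 in VC and 3658, 4010.4 and 3541 in Bub1KO (log2 difference 1.22, SE 0.06, limma adjusted p = 3.67e-08). None of these 4 genes overlapped between the groups. Dct, a later enzyme of the melanin pathway and one of the most abundant RNAs here, went from 169287 ± 7448 in VC to 269057 ± 10459 in Bub1KO (log2 difference 0.67, SE 0.07, limma adjusted p = 2.62e-05).

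The melanocyte falls numbered 3 by DESeq2, 2 in the 12-library fit and 3 by edgeR. The regulator Mitf was at 12694, 13333 and 11884 in VC and 11527, 11119 and 12515 in Bub1KO (log2 difference -0.11, SE 0.06, limma adjusted p = 0.209), with overlapping groups. Members that fell were Kit, the receptor of pigment cell precursors (76.8, 90.8 and 96.5 in VC and 53.7, 46.5 and 64.1 in Bub1KO, log2 difference -0.68), Tfap2a (-0.32), Rab32 (-0.25), Mreg (-0.26) and Mlph, the last picked with the values in view. The calls of Kit and Mreg ended by DESeq2 and edgeR and in the 12-library fit (adjusted p of at most 0.127) and by DESeq2 and edgeR, in the 12-library fit, without VC replicate 3 and without Bub1KO replicate 2 (adjusted p of at most 0.135). Kcnj13, a potassium channel gene among the largest rises of all genes, was at 32.7, 23.6 and 19.3 in VC and 130.0, 128 and 108 in Bub1KO (log2 difference 2.26, SE 0.20, limma adjusted p = 5.56e-06). In the list of dedifferentiated melanoma and receptor genes 0 of 14 tested members rose and 2 fell (median -0.15). Ngfr, a marker of the neural crest state, was at 69.7, 81.7 and 63.3 in VC and 21.7, 17.2 and 13.7 in Bub1KO (log2 difference -1.99, SE 0.22, limma adjusted p = 3.4e-05). The other was Jun, described below.

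**Figure D3:**
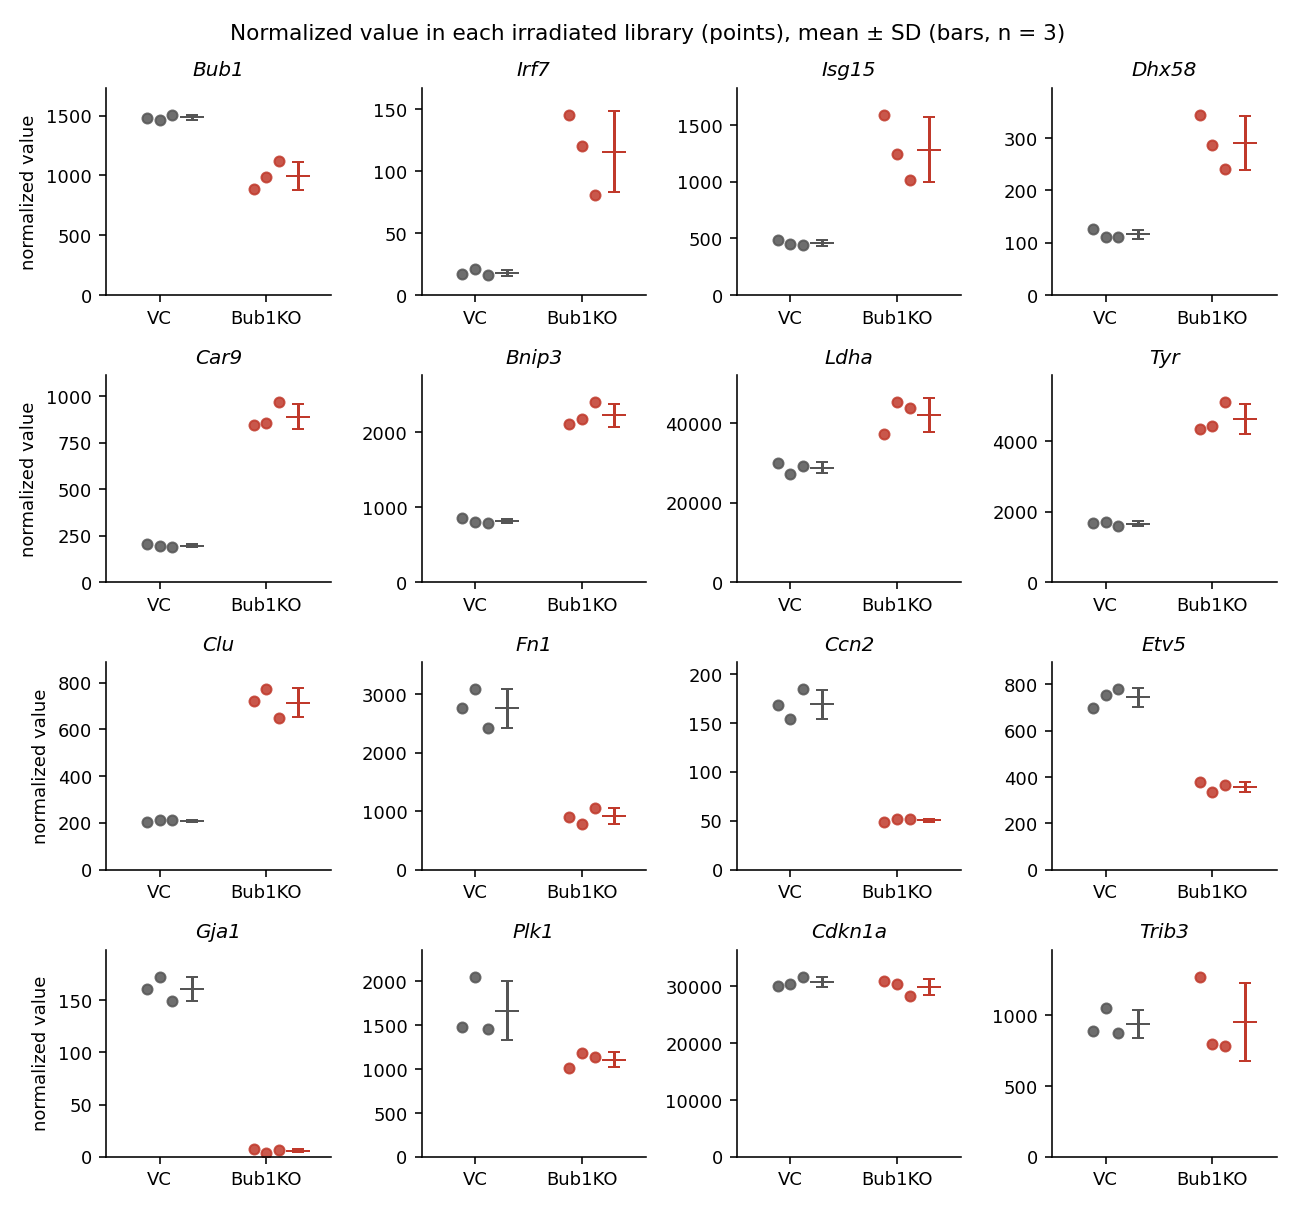
Normalized value of 16 genes in each irradiated library (points; grey VC, red Bub1KO) with mean and SD (bars, n = 3), each panel with its own axis from 0. Irf7, Car9, Tyr and Clu are higher and Fn1, Ccn2, Etv5 and Gja1 lower in all 3 Bub1KO libraries, while Cdkn1a and Trib3 overlap.

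Output genes of the ERK growth factor pathway were lower in irradiated Bub1KO nearly throughout the list: 0 of 17 tested members rose and 14 fell, with a median of -0.63. The ETS factor genes that ERK induces were among the largest falls. Etv4 was at 74.7, 98.03 and 107 in VC and 29.9, 27.3 and 30.5 in Bub1KO (log2 difference -1.63, SE 0.18, limma adjusted p = 3.86e-05). Etv5 was at 698, 753 and 779 in VC and 377, 335 and 363 in Bub1KO (log2 difference -1.05, SE 0.08, limma adjusted p = 1.96e-06). The receptor gene Epha2 was at 62.6, 65.4 and 53.6 in VC and 13.4, 20.2 and 15.8 in Bub1KO (log2 difference -1.83, SE 0.22, limma adjusted p = 6.47e-05). Dusp6, the phosphatase that switches ERK off, was at 1601, 1809 and 1897 in VC and 1312, 1062 and 1189 in Bub1KO (log2 difference -0.58, SE 0.08, limma adjusted p = 0.000305). Ccnd1, which encodes cyclin D1 and is far more abundant, was at 20363, 21155 and 20407 in VC and 14053, 12394 and 13489 in Bub1KO (log2 difference -0.63, SE 0.06, limma adjusted p = 8.16e-06). The groups were apart in all 5 genes. Of the others that fell, Myc, Spry1, Spry2, Spry4, Spred1, Spred2, Dusp4 and Etv1 were picked with the values in view. Egr1 did not pass.

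In untreated cells 8 of these 17 genes were lower and 0 higher (median -0.78), against 4.01% of all genes in either direction. The interaction passed for Etv5 alone by limma (interaction 1.46, SE 0.24, limma adjusted p = 0.012): its fall was -2.51 in untreated and -1.05 in irradiated cells. Immediate-early factors, which respond to growth signals quickly, rose in 2 of 17 tested members and fell in 9 (median -0.40). Junb was at 66.1, 157 and 69.7 in VC and 45.4, 30.3 and 31.5 in Bub1KO (log2 difference -1.33, SE 0.29, limma adjusted p = 0.00375), with VC replicate 2 far above the other VC libraries. Jun was at 799.9, 946 and 777 in VC and 645, 594 and 578 in Bub1KO (log2 difference -0.47, SE 0.09, limma adjusted p = 0.00132). Fos was at 111, 116 and 118 in VC and 83.6, 57.6 and 93.5 in Bub1KO (log2 difference -0.58, SE 0.17, limma adjusted p = 0.0212), and its call ended by DESeq2 and edgeR, in the 12-library fit and without Bub1KO replicate 2 (adjusted p of at most 0.264). Nr4a3 and Klf10 rose, with 0.37 and 0.37. The falls numbered 4 by DESeq2, 4 in the 12-library fit, 4 by edgeR and 5 without Bub1KO replicate 2.

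Matrix genes and TGF-beta responses were lower (3 of 26 tested members rose and 14 fell, median -0.27, against -0.28 in untreated cells). Fn1 (GRCm38 chromosome 1, 71585520 to 71653200), which encodes fibronectin, was at 2760.3, 3079.8 and 2421 in VC and 897, 778 and 1049 in Bub1KO (log2 difference -1.60, SE 0.10, limma adjusted p = 4.24e-07). Ccn2, a matricellular gene induced by TGF-beta and YAP, was at 169, 154 and 184 in VC and 48.5, 51.6 and 51.5 in Bub1KO (log2 difference -1.72, SE 0.13, limma adjusted p = 2.22e-06). Tgfbi, named for its induction by TGF-beta, was at 45.5, 49.9 and 65.4 in VC and 8.25, 18.2 and 21.01 in Bub1KO (log2 difference -1.78, SE 0.31, limma adjusted p = 0.000881). Pmepa1, a TGF-beta feedback gene among the largest falls of all genes, was at 134, 148 and 171 in VC and 49.5, 32.4 and 29.4 in Bub1KO (log2 difference -2.03, SE 0.19, limma adjusted p = 1.04e-05). In each of these 4 genes the highest Bub1KO library was below the lowest VC library. Members that rose were Spp1, the secreted phosphoprotein osteopontin, at 277, 239 and 238 in VC and 484, 439 and 418 in Bub1KO (log2 difference 0.83, SE 0.10, limma adjusted p = 5.4e-05), Timp3, an inhibitor of matrix proteases (0.47), and Postn (0.27), the last with a call that ended in the 12-library fit and without VC replicate 1 (adjusted p of at most 0.0907).

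Collagen genes and those of the enzymes that modify them went both ways. In the joint list 4 of 23 tested members rose and 11 fell (median -0.20). Col6a1 was at 13.5, 22.7 and 20.4 in VC and 2.06, 4.04 and 2.1 in Bub1KO (log2 difference -2.42, SE 0.40, limma adjusted p = 0.000623). Col27a1 was at 96.7, 87.1 and 65.4 in VC and 38.2, 45.5 and 33.6 in Bub1KO (log2 difference -1.06, SE 0.19, limma adjusted p = 0.0012). Col1a2 went from 263 ± 10.4 in VC to 172 ± 13.9 in Bub1KO (log2 difference -0.61, SE 0.10, limma adjusted p = 0.000694). The genes that fell included the lysyl oxidase gene Loxl4 and the collagen chaperone gene Serpinh1 (chosen with the values in view). The 4 that rose were all enzymes: the prolyl hydroxylase genes P4ha1 and P4ha2, the lysyl hydroxylase gene Plod2 and the lysyl oxidase gene Loxl2. P4ha1 was at 2097, 2028 and 1928 in VC and 3088, 3473 and 3421 in Bub1KO (log2 difference 0.72, SE 0.06, limma adjusted p = 5.11e-06). P4ha2 went from 956 ± 83.5 in VC to 1495 ± 106 in Bub1KO and Plod2 from 2898 ± 60.04 in VC to 4075 ± 241 in Bub1KO. P4ha1 also stands in the glycolysis and hypoxia list, as a hypoxia-induced gene, so the lists are not independent. The falls numbered 6 by DESeq2 and 6 in the 12-library fit.

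Genes of the contractile cytoskeleton and targets of YAP, a co-activator that responds to cell tension, were lower (1 of 25 tested members rose and 17 fell, median -0.34). The median of this list in untreated cells was -0.35. Tagln2, an actin-binding protein gene, was at 2009, 1957 and 2208 in VC and 904, 859 and 829 in Bub1KO (log2 difference -1.25, SE 0.07, limma adjusted p = 5.95e-08). Ccn1, a YAP target, was at 1006, 977 and 1236 in VC and 565, 578 and 577 in Bub1KO (log2 difference -0.89, SE 0.09, limma adjusted p = 1.27e-05). Lats2, the kinase that restrains YAP and is also its target, was at 659, 772 and 797 in VC and 379.7, 373 and 433 in Bub1KO (log2 difference -0.91, SE 0.09, limma adjusted p = 1.8e-05). The exception was Itga5, the fibronectin receptor subunit, which rose from 463 ± 33.1 to 813 ± 30.9 (log2 difference 0.81, SE 0.08, limma adjusted p = 1.01e-05). All 3 Bub1KO libraries were apart from VC in these 4 genes. In the 12-library fit 10 members fell.

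Genes of mitosis and of S phase were slightly lower. In the G2/M list 1 of 54 tested members rose and 27 fell (median -0.20). Anln, a scaffold of the cleavage furrow, was at 3028, 3615 and 3239 in VC and 1816, 1941 and 2532 in Bub1KO (log2 difference -0.66, SE 0.10, limma adjusted p = 0.000485). Ect2, which positions that furrow, was at 875, 1088 and 1007 in VC and 672, 585 and 787 in Bub1KO (log2 difference -0.54, SE 0.11, limma adjusted p = 0.00202). The mitotic kinase gene Plk1 was at 1481, 2055 and 1463 in VC and 1010.2, 1179 and 1138 in Bub1KO (log2 difference -0.57, SE 0.11, limma adjusted p = 0.00205). Ccnb1, the cyclin of mitotic entry, was at 1996, 2051 and 2006 in VC and 1518, 1604 and 1827 in Bub1KO (log2 difference -0.29, SE 0.07, limma adjusted p = 0.00686). The proliferation marker Mki67 did not pass, at 5844, 5812 and 5339 in VC and 5486, 5378 and 5934 in Bub1KO (log2 difference -0.02, SE 0.06, limma adjusted p = 0.86). The member that rose was Pttg1, the securin gene, from 622 ± 24.9 in VC to 826 ± 65.4 in Bub1KO. Bub1KO replicate 3 was the highest Bub1KO library for 21 of the 27 genes that fell. The falls numbered 12 by DESeq2, 10 in the 12-library fit, 13 by edgeR, 13 without Bub1KO replicate 1, 13 without Bub1KO replicate 2 and 13 without VC replicate 1.

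In the G1/S and replication list 2 of 52 tested members rose and 21 fell (median -0.16). E2f8 was at 457, 468 and 469.8 in VC and 269, 289 and 332 in Bub1KO (log2 difference -0.65, SE 0.09, limma adjusted p = 0.000239). The licensing factor gene Cdt1 was at 1165, 1522 and 1062 in VC and 753, 750.3 and 759 in Bub1KO (log2 difference -0.71, SE 0.11, limma adjusted p = 0.00032). The polymerase delta subunit gene Pold1 was at 1209, 1675 and 1041 in VC and 649, 751 and 702 in Bub1KO (log2 difference -0.87, SE 0.13, limma adjusted p = 0.000344). Cdk2 rose from 8752 ± 174 to 10569 ± 569, and it overlaps the very abundant gene Pmel on the opposite strand, which also rose. Of 12 tested replication-dependent histone genes 3 fell and 0 rose (median -0.28), led by Hist1h3d (log2 difference -1.12, SE 0.26, limma adjusted p = 0.00612). The histone falls numbered 1 by DESeq2 and 1 in the 12-library fit. Genes of double-strand break repair rose in 3 of 48 tested members and fell in 12 (median -0.06). Brca1 was at 5402, 5270.1 and 5217 in VC and 6671, 7413 and 7391 in Bub1KO (log2 difference 0.43, SE 0.06, limma adjusted p = 0.000141). Topbp1, which activates the checkpoint kinase ATR, went from 4123 ± 173 in VC to 3072 ± 289 in Bub1KO (log2 difference -0.43, SE 0.07, limma adjusted p = 0.00055). The repair falls numbered 6 by DESeq2, 6 in the 12-library fit, 7 by edgeR, 5 without Bub1KO replicate 1, 7 without Bub1KO replicate 2, 6 without VC replicate 1 and 6 without VC replicate 2. Chek1, a checkpoint kinase gene, had -0.48 (limma adjusted p = 0.00312).

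The p53 targets, which irradiation engages, did not move as a block between the genotypes (6 of 41 tested members rose and 12 fell, median -0.09). Cdkn1a, the cell cycle inhibitor p21, was at 29981, 30457 and 31717 in VC and 30979, 30356 and 28344 in Bub1KO (log2 difference -0.04, SE 0.06, limma adjusted p = 0.64), a difference within the spread of the libraries. Mdm2, the ligase that degrades p53, was at 5402, 5621 and 5719 in VC and 4392, 4403 and 4788 in Bub1KO (log2 difference -0.30, SE 0.06, limma adjusted p = 0.00151). Trp53inp1 had -0.37 (limma adjusted p = 0.00426), a call that ended in the 12-library fit (adjusted p of at most 0.0645). Eda2r, a receptor of the TNF family, was the largest rise, at 150.0, 159.8 and 162 in VC and 395, 365 and 435 in Bub1KO (log2 difference 1.33, SE 0.10, limma adjusted p = 1.47e-06), and the atypical chemokine receptor gene Ackr3 the largest fall, at 48.4, 49.9 and 42.9 in VC and 17.5, 15.2 and 22.1 in Bub1KO (log2 difference -1.33, SE 0.22, limma adjusted p = 0.000646). The rises numbered 3 in the 12-library fit, 3 without Bub1KO replicate 1 and 3 without VC replicate 1. Btg2, an antiproliferative gene, went from 984 ± 54.1 in VC to 653 ± 11.04 in Bub1KO (log2 difference -0.59, SE 0.07, limma adjusted p = 5.59e-05).

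Cell death genes went both ways (7 of 28 tested members rose and 6 fell, median 0.07). Bcl2l1, which encodes the survival protein Bcl-xL, was at 3076, 3129.7 and 2990.3 in VC and 2236, 2115 and 2190.1 in Bub1KO (log2 difference -0.49, SE 0.06, limma adjusted p = 3.89e-05). The pro-apoptotic genes Bbc3 (Puma) and Hrk also fell: Bbc3 was at 275, 443 and 235 in VC and 189, 184 and 144 in Bub1KO (log2 difference -0.84, SE 0.19, limma adjusted p = 0.00505). Hrk was at 22.8, 19.97 and 27.9 in VC and 5.16, 5.06 and 4.2 in Bub1KO (log2 difference -2.07, SE 0.32, limma adjusted p = 0.000375). The Bbc3 call ended by DESeq2 and in the 12-library fit (adjusted p of at most 0.0829). Gsdmd, the pore protein gene of pyroptosis, was at 76.8, 75.3 and 66.5 in VC and 127, 104 and 112 in Bub1KO (log2 difference 0.64, SE 0.14, limma adjusted p = 0.00399). Bmf went from 249 ± 9.7 in VC to 337 ± 29.8 in Bub1KO (log2 difference 0.43, SE 0.10, limma adjusted p = 0.00469). The rises numbered 4 by DESeq2, 2 in the 12-library fit, 4 by edgeR, 4 without Bub1KO replicate 2, 3 without VC replicate 1 and 3 without VC replicate 3, and the falls 3 by DESeq2 and 3 in the 12-library fit.

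Genes of the integrated stress response, in which Atf4 raises amino acid supply, were almost level between the irradiated genotypes, whereas they were higher in untreated Bub1KO. After irradiation 3 of 31 tested members rose and 8 fell (median -0.06), and in untreated cells 19 rose and 1 fell (median 0.94). The interaction passed for 17 of the 31 members, all downward, against 0.55% of all genes (81, of which 61 were downward). In the untreated comparison 4.01% of all genes passed. Trib3, a pseudokinase induced by Atf4, was at 887, 1049 and 871 in VC and 1272, 798 and 784 in Bub1KO (log2 difference -0.01, SE 0.15, limma adjusted p = 0.971), and its untreated log2 difference was 2.97 (interaction -2.98, SE 0.35, limma adjusted p = 0.00119). Chac1, which degrades glutathione, was at 470.0, 529 and 455 in VC and 550.0, 387 and 386 in Bub1KO (log2 difference -0.15, SE 0.12, limma adjusted p = 0.378), against 2.78 in untreated cells (interaction -2.94, SE 0.35, limma adjusted p = 0.00119). Asns, the asparagine synthetase, had -0.04 against 0.97 (interaction -1.01, SE 0.10, limma adjusted p = 0.000754), and Atf4 itself 0.09 against 0.93 (interaction -0.84, SE 0.14, limma adjusted p = 0.0134).

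Some members of the list passed the threshold after irradiation. Nupr1, a stress-induced chromatin protein gene, was at 533, 415 and 473 in VC and 776, 584 and 572 in Bub1KO (log2 difference 0.44, SE 0.12, limma adjusted p = 0.0145), and its call ended in the 12-library fit, without VC replicate 2 and without Bub1KO replicate 1 (adjusted p of at most 0.163). The cysteine synthesis genes Cbs and Cth fell: Cbs was at 80.3, 88.95 and 90.1 in VC and 35.1, 38.4 and 48.3 in Bub1KO (log2 difference -1.08, SE 0.17, limma adjusted p = 0.000485). Cth went from 317 ± 28.9 in VC to 197 ± 34.9 in Bub1KO (log2 difference -0.69, SE 0.13, limma adjusted p = 0.00162). The stress response falls numbered 5 by DESeq2, 4 in the 12-library fit, 5 by edgeR, 13 without Bub1KO replicate 1 and 5 without Bub1KO replicate 2, and the rises 5 with GC trends removed, 0 in the 12-library fit and 1 without Bub1KO replicate 1. Slc38a2, an amino acid transporter gene, went from 6980.3 ± 42.4 in VC to 5207 ± 537 in Bub1KO (log2 difference -0.43, SE 0.07, limma adjusted p = 0.000534). Serine and one-carbon enzymes rose in 0 of 13 tested members and fell in 7 (median -0.26, 0.20 in untreated cells). Mthfd1 was at 4027, 4296 and 4112 in VC and 2765, 3136 and 3389.7 in Bub1KO (log2 difference -0.42, SE 0.07, limma adjusted p = 0.000694). Phgdh, the enzyme that commits carbon to serine, went from 5133 ± 156 in VC to 4005 ± 189 in Bub1KO, a call that ended in the 12-library fit (adjusted p of at most 0.109). The falls numbered 4 by DESeq2, 2 in the 12-library fit, 4 by edgeR, 4 without Bub1KO replicate 2 and 4 without VC replicate 2. Among aminoacyl-tRNA synthetases 2 of 21 tested members rose and 4 fell (median -0.06), with 5 interactions past the threshold. That 5 became 1 by edgeR and 1 with the replicate number as a block, 3 with no filter on low values, 9 with GC trends removed and 10 without untreated Bub1KO replicate 1. It was 1 to 3 without 1 irradiated library, untreated VC replicate 1 or 2, or untreated Bub1KO replicate 2. The number of integrated stress response members past the interaction threshold was 9 by edgeR, 26 without untreated Bub1KO replicate 1, and 10 to 16 without 1 of the other libraries.

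**Figure D4:**
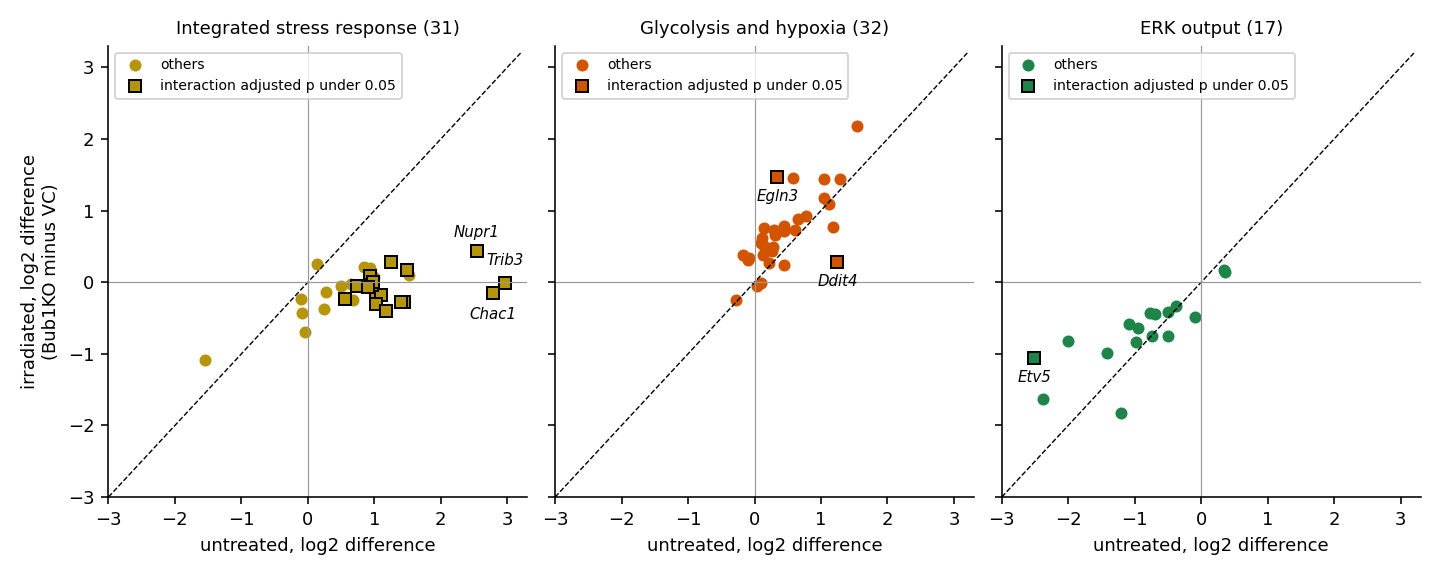
Log2 difference between Bub1KO and VC after irradiation (vertical axis) against the same difference in untreated cells (horizontal axis) for the members of 3 lists, with squares for genes past the interaction threshold and a dashed line where the 2 are equal. Members of the integrated stress response lie near 0 on the vertical axis and up to 2.97 on the horizontal one, while most glycolysis and hypoxia genes lie above the dashed line.

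Of the 24 largest single changes, 12 in each direction, 17 also passed in untreated cells. The share was 10.1% over all irradiated calls and 4.01% over all tested genes. Neither share is matched to the 24, which were picked for large differences at a mean of at least 100. Dnah6, an axonemal dynein gene, was at 4.98, 0 and 1.07 in VC and 187, 191 and 199 in Bub1KO (log2 difference 6.38, SE 0.47, limma adjusted p = 1.44e-06), against 6.38 untreated. Mgll, a lipase of monoacylglycerols, was at 1561, 1402 and 1587 in VC and 7523, 7320.1 and 5520.0 in Bub1KO (log2 difference 2.15, SE 0.10, limma adjusted p = 2.07e-08). Also among the 12 largest rises of protein-coding genes were Wfdc3 (1.99), Gm10639 (1.95), Pde1b, a phosphodiesterase gene (1.93), and Crabp2, a retinoic acid carrier gene (1.89).

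Among the falls, several genes were at a few normalized units in Bub1KO. Mtus1 was at 142, 149 and 136 in VC and 4.13, 1.01 and 1.05 in Bub1KO (log2 difference -5.70, SE 0.34, limma adjusted p = 1.81e-07). Hoxd13, a homeobox gene of limb and body axis, was at 156, 149 and 153 in VC and 4.13, 2.02 and 4.2 in Bub1KO (log2 difference -5.15, SE 0.26, limma adjusted p = 2.99e-08). The gap junction gene Gja1 was at 161, 172 and 149 in VC and 7.22, 4.04 and 6.3 in Bub1KO (log2 difference -4.59, SE 0.23, limma adjusted p = 2.99e-08). At such low levels the difference understates the change, because 1 is added to each value. Capn6 was at 209, 219 and 176 in VC and 11.4, 8.09 and 9.45 in Bub1KO (log2 difference -4.25, SE 0.19, limma adjusted p = 2.07e-08). Hapln1, which links hyaluronan to proteoglycans, was at 219.7, 269.6 and 287 in VC and 34.1, 27.3 and 18.9 in Bub1KO (log2 difference -3.26, SE 0.20, limma adjusted p = 1.81e-07). Adam12, a metalloprotease gene, was at 437, 499 and 479 in VC and 185, 174 and 219.5 in Bub1KO (log2 difference -1.29, SE 0.11, limma adjusted p = 2.94e-06), against -2.51 in untreated cells (interaction 1.21, SE 0.16, limma adjusted p = 0.00255). Further falls were in Ccdc134 (-1.65) and the imprinted gene Mest (-1.65). None of the groups of these genes overlapped, which the rule that picked the largest falls required. The noncoding transcript 1110038B12Rik was at 2884, 3261 and 2891 in VC and 1341, 1380.3 and 1349 in Bub1KO after irradiation (log2 difference -1.15, SE 0.06, limma adjusted p = 6.69e-08) and -0.09 in untreated cells (interaction -1.06, SE 0.13, limma adjusted p = 0.00182).

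The libraries differed in the level of GC-rich transcripts. In the highest of 10 GC classes of genes 120 of 1471 were called higher and 483 lower (median -0.18), and with the GC trend of each library removed 297 were higher and 332 lower. The gap between the GC-richest and GC-poorest classes was 0.384, 0.516 and 0.194 (log2) in the VC libraries and 0.216, 0.329 and 0.086 in the Bub1KO libraries, so the groups overlapped in this gap. In the GC-richest class alone they did not. Its median log2 deviation from the mean of the 6 libraries was 0.076, 0.210 and -0.011 in VC and -0.050, -0.061 and -0.160 in Bub1KO. In several large falls the VC replicate 2 value stood above the other VC libraries. Rpl36 was at 9319, 17939 and 7789 in VC and 2804, 2735 and 2451 in Bub1KO (log2 difference -2.04, SE 0.21, limma adjusted p = 1.95e-05, -1.82 with GC trends removed). Rplp2 was at 6622, 14824 and 5747 in VC and 3041, 3548 and 3083 in Bub1KO (log2 difference -1.36, SE 0.24, limma adjusted p = 0.00111, -1.37 with GC trends removed). Uqcrq, of the respiratory chain, was at 2803, 5003 and 2257 in VC and 984, 1037 and 974 in Bub1KO (log2 difference -1.66, SE 0.20, limma adjusted p = 5.94e-05, -1.71 with GC trends removed). Rplp1 was at 35573, 47094 and 30708 in VC and 14954, 14824 and 12604 in Bub1KO (log2 difference -1.40, SE 0.12, limma adjusted p = 4.52e-06). Lrfn4, a neuronal adhesion gene, was at 240.3, 399 and 204 in VC and 75.3, 93.03 and 67.2 in Bub1KO (log2 difference -1.78, SE 0.21, limma adjusted p = 5.34e-05, -1.40 with GC trends removed). The part of GC content in these falls was not tested beyond this removal.

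**Figure D5:**
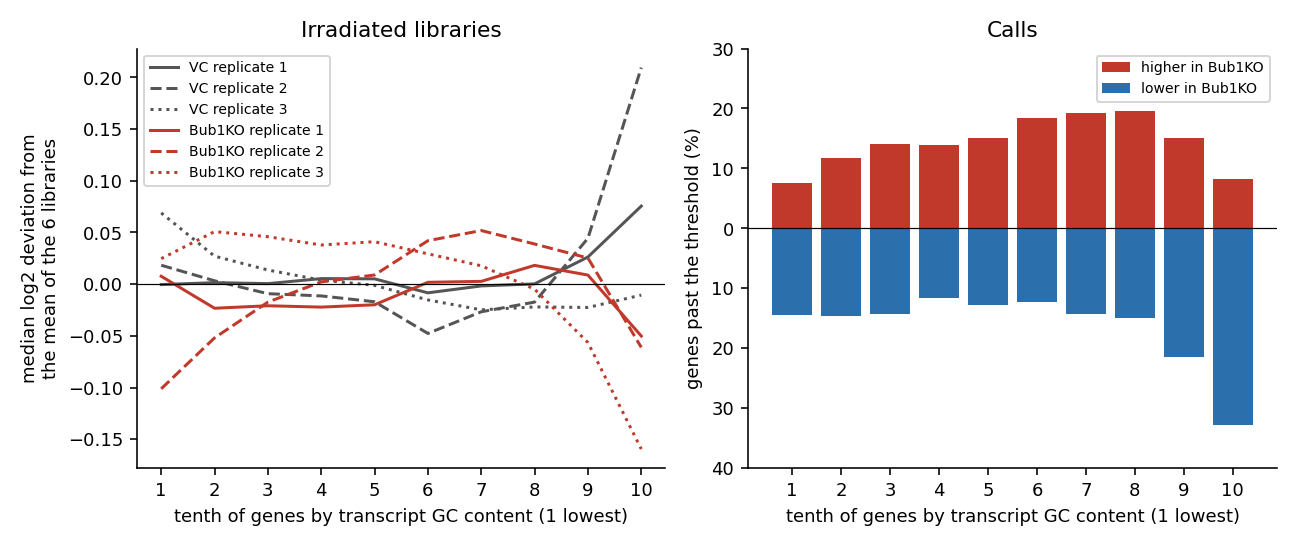
Left, median log2 deviation of each irradiated library from the mean of the 6 libraries, by class of genes ordered by transcript GC content (10 classes); right, share of genes in each class called higher (red) or lower (blue) in Bub1KO. VC replicate 2 stands highest and Bub1KO replicate 3 lowest in the GC-richest class, where 483 genes were called lower.

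The remaining lists held smaller or mixed changes. Of 50 cytosolic ribosomal protein genes 14 rose and 10 fell (median 0.08), and VC replicate 1 and Bub1KO replicate 2 were the highest of their groups in all 14 that rose. The rises numbered 8 by DESeq2, 1 in the 12-library fit, 7 by edgeR, 7 without Bub1KO replicate 2 and 9 without VC replicate 2, and the falls 4 in the 12-library fit. Of those that rose, Rpl3 went from 16067 ± 1156 in VC to 20137 ± 1227 in Bub1KO (log2 difference 0.33, SE 0.07, limma adjusted p = 0.00248). Rps13 fell, at 7029, 8785 and 6490.2 in VC and 4068, 4278 and 3902 in Bub1KO (log2 difference -0.85, SE 0.09, limma adjusted p = 2.38e-05). Nuclear-encoded respiratory chain genes rose in 16 of 42 tested members and fell in 4 (median 0.12), with Uqcrh at 6446, 5419 and 6195 in VC and 7761, 9012 and 8066 in Bub1KO (log2 difference 0.46, SE 0.07, limma adjusted p = 0.000534). Ndufb10 was at 2308, 2628 and 2157 in VC and 1608, 1876 and 1567 in Bub1KO (log2 difference -0.49, SE 0.08, limma adjusted p = 0.000832). The rises numbered 10 by DESeq2, 7 in the 12-library fit, 10 by edgeR and 8 without Bub1KO replicate 2, and the falls 2 with GC trends removed and 1 in the 12-library fit. Of 7 tested mitochondrially encoded mRNAs 1 rose and 1 fell (median -0.12).

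Cholesterol and fatty acid synthesis genes rose in 5 of 29 tested members and fell in 8 (median -0.06). Acss2, which activates acetate, was at 369.7, 320.4 and 371 in VC and 568, 558 and 545 in Bub1KO (log2 difference 0.66, SE 0.08, limma adjusted p = 0.000111). The falls numbered 5 by DESeq2, 1 in the 12-library fit, 5 by edgeR, 5 without Bub1KO replicate 1, 5 without Bub1KO replicate 2 and 5 without VC replicate 2. Fdft1, the squalene synthase, went from 1570.5 ± 68.4 in VC to 2017 ± 104 in Bub1KO (log2 difference 0.36, SE 0.06, limma adjusted p = 0.000988). Among 9 abundant noncoding RNAs 3 rose and 1 fell (median -0.13). The nuclear RNA Malat1 was at 53446, 44951 and 48745 in VC and 84157, 77141 and 67638 in Bub1KO (log2 difference 0.64, SE 0.08, limma adjusted p = 0.000149). Neat1, the scaffold of paraspeckles, went from 1799 ± 189.9 in VC to 2502 ± 144 in Bub1KO (log2 difference 0.48, SE 0.08, limma adjusted p = 0.000511). Rn7sk, which restrains transcription elongation, was at 272, 275 and 215 in VC and 116, 141 and 136 in Bub1KO (log2 difference -0.95, SE 0.13, limma adjusted p = 0.000152).

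Set beside the untreated comparison, which shares no library with this one, 454 genes passed in both, 447 of them in the same direction. They make up 10.1% of the irradiated and 76.8% of the untreated calls. Across genes the 2 log2 differences correlated with a Pearson r of 0.53 over 14721 genes, a description in which genes are not independent and the 2 genotypes are shared. Antiviral effectors illustrate the change in counts: 6 of 46 rose in untreated and 34 in irradiated Bub1KO (medians 0.23 and 0.62). Of all genes 4.01% passed in untreated cells in either direction, and 14.3% were higher after irradiation. Without untreated Bub1KO replicate 1 the untreated calls over all genes numbered 2736 in place of 591. The interaction passed for 0 of the 46 effectors by limma and edgeR and for 4 by DESeq2. At an unadjusted p under 0.05 by limma there were 17 of them, beside 1784 of all 14721 genes. Dhx58 was the member of the RNA sensing list that passed the interaction threshold (interaction 2.09, SE 0.24, limma adjusted p = 0.00119), with -0.79 in untreated and 1.30 in irradiated cells.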

How the data were processed

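Per the submitters' processing notes, the authors used Trim Galore, cutadapt, STAR, SAMtools and HTSeq with GRCm38.p6 (mm10). Per the labels' protocols, libraries were stranded total RNA after ribosomal RNA removal. Versions, annotation and strand setting of the counting were not given in the sources used here, so reads of the 96 of 250 genes picked for naming that overlap a gene on the opposite strand may be mixed. The deposited values are a signal, read counts divided by a size factor: in the 11 of 12 libraries converted back, 100% of values came out as whole reads within 0.01. Irradiated Bub1KO replicate 2 was left out of this conversion, and so of the edgeR and DESeq2 fits. Its deposited values were used in the limma fits. The deposited fold changes and p columns were left out.

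Genes reaching 10 in 3 or more libraries were tested on log2(value + 1), which understates changes of low genes, with limma 3.58.1 (trend, R 4.3.3) and Benjamini-Hochberg adjustment, after a test on simulated data. Genotype differences were taken within each deposited table. Alternatives were other pseudocounts and filters, TMM, edgeR 4.0.16 and DESeq2 1.42.0 on recovered reads, a replicate block, all 12 libraries together, each library left out, and GC trends removed (added after seeing the data; GENCODE M21 annotation).

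The comparison and gene lists were chosen with earlier results of these data known. Genes named are Bub1, set readouts, up to 4 called members per list and direction, the 12 largest non-overlapping protein-coding rises and falls with a mean of at least 100, the 5 most abundant 2-fold changes and the 6 largest interactions per direction. Others are marked in the text, and some genes are not reported here.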

Additional observations from a re-analysis of the deposited data

Results flagged for a closer look

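The difference between Bub1KO and VC after irradiation was set against that in untreated cells by an interaction term (limma, all 12 libraries), and 26 genes that the naming rule picks differed in it. The values below are the irradiated minus the untreated log2 difference. Untreated Bub1KO replicate 1 stood apart in GC content (a gap of -0.906), and without it the number of genes past this threshold was 1447 in place of 81. Its part in the single values was not tested.

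The largest group, 7 genes of the integrated stress response list, was lower: Trib3 (-2.98, limma adjusted p = 0.00119), Chac1 (-2.94, limma adjusted p = 0.00119), Nupr1 (-2.11, limma adjusted p = 0.00277), Jdp2 (-1.58, limma adjusted p = 0.0279), Asns (-1.01, limma adjusted p = 0.000754), Ddit4 (-0.96, limma adjusted p = 0.0171) and Atf4 (-0.84, limma adjusted p = 0.0134). The folate enzyme gene Aldh1l2 (-1.37, limma adjusted p = 0.0052) and the aminoacyl-tRNA synthetase genes Tars (-0.86, limma adjusted p = 0.00799), Cars (-0.68, limma adjusted p = 0.0279) and Iars (-0.60, limma adjusted p = 0.0416) were lower as well. The pro-apoptotic gene Hrk had -3.33, limma adjusted p = 0.0154, the nuclear receptor gene Nr4a3 -0.79, limma adjusted p = 0.00182 and the carboxylesterase gene Ces2e -2.43, limma adjusted p = 0.00119. Ces2e was at 99.5, 101 and 108 in VC and 36.1, 38.4 and 32.6 in Bub1KO after irradiation (log2 difference -1.50, SE 0.16, limma adjusted p = 2.03e-05) and had 0.93 in untreated cells.

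Lower as well were Uqcrq (-2.32, limma adjusted p = 0.0456), Rps13 (-0.97, limma adjusted p = 0.024), Rn7sk (-1.67, limma adjusted p = 0.0154), Brd3os (-1.85, limma adjusted p = 0.00255) and 1110038B12Rik (-1.06, limma adjusted p = 0.00182). Brd3os had a log2 difference of 2.02 in untreated cells and was at 154, 132 and 143 in VC and 177, 161 and 145 in Bub1KO after irradiation. In the other direction stood the RNA helicase gene Dhx58 (2.09, limma adjusted p = 0.00119), Pygm (1.75, limma adjusted p = 0.00733), Etv5 (1.46, limma adjusted p = 0.012), Cd68 (1.24, limma adjusted p = 0.0171), Adam12 (1.21, limma adjusted p = 0.00255), Egln3 (1.13, limma adjusted p = 0.0446) and Txnip (0.63, limma adjusted p = 0.0216). For Etv5 and Adam12 the positive value is a smaller fall after irradiation.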

How the results depend on the processing

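The count of irradiated calls (4512, 2104 higher and 2408 lower) was 2656 by DESeq2 (1211 higher, 1445 lower) and 2105 in the 12-library fit (1085 and 1020), which uses a spread shared with the untreated libraries. With the replicate block 4161 passed, and the irradiated counts ranged over 3045 to 4744 when 1 library was left out (1383 to 2076 higher, 1662 to 2668 lower). List members past the threshold numbered 460, 269 with all 12 libraries and 355 to 478 with 1 left out. The untreated count of 591 was 1692 with GC trends removed, 1769 with all 12 libraries, 310 with the replicate block and 172 to 2736 with 1 library left out, highest without Bub1KO replicate 1. The interaction count of 81 was 37 by edgeR, 138 by DESeq2, 428 with GC trends removed, 47 with the replicate block and 33 to 1447 with 1 library left out. With all 12 libraries, lysosomal genes rose in 9, reticulum chaperones in 4, and immediate-early factors fell in 4, collagens in 6, YAP genes in 10, G2/M genes in 10 and stress granule genes in 6. By DESeq2 the counts were 6 (chaperones), 4 (immediate-early), 6 (collagens), 12 (G2/M) and 9 (stress granule), and by edgeR 7, 4, 13 and 8 for chaperones, immediate-early, G2/M and stress granule genes and 9 for stress response interactions. With 1 library left out they ranged over 6 to 10 (chaperones), 5 to 9 (immediate-early), 13 to 35 (G2/M), 9 to 17 (stress granule) and 10 to 26 (stress response interactions). The edgeR, DESeq2 and left-out fits hold fewer libraries, and the cause of the other moves was not tested. Same-numbered irradiated libraries did not deviate together (correlations of -0.032, -0.027 and -0.11). Counts of the antiviral, interferon regulator, glycolysis, complement, Nrf2, ERK, matrix and G1/S lists, where 3 or more, stayed within 1.5 times in the alternatives run. Of 240 called genes picked by the naming rule, 171 passed in all 16 alternatives run for the irradiated comparison and none of the 240 changed direction in any of them. The replicate block ended 6 of these calls; the replicate numbers share only a number. Depth and 3 libraries a group limit small changes: values near 10 carry the counting error of about 10 reads.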
